A study of Mus musculus with 14 samples.

Results

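Peaks of methylated DNA that lay inside introns, away from promoters, were examined in mouse iPS cells, ES cells and fibroblasts. A peak was taken when its summit, the base with the most sequence tags, fell within a protein-coding gene on chromosomes 1 to 19, in no annotated exon, and more than 1 kb from the 5′ end of any protein-coding transcript (mm9, GENCODE vM1). This rule used position alone and no measured value, but the class was chosen with earlier results of these data known. The rule took 293421 of the 1012200 peaks on these chromosomes (29.0%), out of 1063163 peaks in all files. The other peaks on the same chromosomes were 475654 intergenic, 205564 exon and 37561 promoter peaks.

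The study asked whether Aid, a deaminase of cytosine in DNA, was needed for the DNA demethylation that accompanies reprogramming to iPS cells. Methylated DNA was measured by MBD-seq, in which sonicated DNA fragments are bound by a methyl-CpG binding domain, sequenced and piled into peaks. There were 4 Aid+/+ iPS samples, 4 Aid-/- iPS samples, 3 ES cell samples and 3 samples of Aid+/+ mouse embryonic fibroblasts (MEFs), all from male cells. The iPS cells had been made with retroviral Oct3/4, Sox2, Klf4 and c-Myc and were collected at passage 6, and each iPS sample was 1 clone (Aid+/+ clones 967B2, 967B4, 979B1 and 979B3, numbered 1 to 4 here, and Aid-/- clones 979F1, 979F3, 981E1 and 981E4). The iPS cells and the MEFs (passage 3) shared a mixed background of C57BL6, DBA and 129S4 and carried a Nanog-GFP reporter. The ES samples were 3 lines of other strains, RF8 (129SV, passage 19), MG1.19 (129Ola) and B6 ES (C57BL6), so that ES 1, 2 and 3 differed in strain as well as in line. No Aid-/- MEFs were among the samples analysed here.

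Most cytosines of mammalian DNA that are followed by guanine carry a methyl group, and this is true of introns as well as of the DNA between genes. The DNMT3 enzymes set new methyl groups, and DNMT1 copies them to the daughter strand at replication. Methylation within transcribed genes is known to accompany transcription and to keep start sites and repeats inside genes silent, and a few introns hold imprinted elements that are methylated on only the maternal chromosome. Capture on a methyl-binding domain favours fragments with many methylated CpGs, so a stretch poor in CpG gives few tags even where it is fully methylated.

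Sequences of 200 bases at the summit are shown for the intron peaks on which the results below turn (mm9, on the strand of the host gene, CpG in capitals). The first pair had a peak in all 14 samples and shows how different such sites were in CpG. It lay in introns of Cbfb (chr8:107736443-107736642), which encodes the partner of the Runx transcription factors, and of Chl1 (chr6:103599108-103599307), a neural adhesion molecule of the L1 family.
Cbfb: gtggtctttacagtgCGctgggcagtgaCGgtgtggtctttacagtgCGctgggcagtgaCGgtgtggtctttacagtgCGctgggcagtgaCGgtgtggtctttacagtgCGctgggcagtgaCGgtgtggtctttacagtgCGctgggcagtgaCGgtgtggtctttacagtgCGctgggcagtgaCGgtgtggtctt
Chl1: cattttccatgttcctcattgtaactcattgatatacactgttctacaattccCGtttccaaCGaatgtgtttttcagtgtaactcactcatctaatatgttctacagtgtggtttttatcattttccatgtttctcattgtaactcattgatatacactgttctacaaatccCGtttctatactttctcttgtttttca

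The next set came from introns of imprinted genes, each with a peak in all 14 samples: Igf2r (chr17:12935142-12935341), Kcnq1 (chr7:150481487-150481686) and Trappc9 (chr15:72640377-72640576). They are shown because all of them hold the letters TGCCGC, the motif bound by the zinc finger protein ZFP57 at methylated imprinted elements when its CpG is methylated.
Igf2r: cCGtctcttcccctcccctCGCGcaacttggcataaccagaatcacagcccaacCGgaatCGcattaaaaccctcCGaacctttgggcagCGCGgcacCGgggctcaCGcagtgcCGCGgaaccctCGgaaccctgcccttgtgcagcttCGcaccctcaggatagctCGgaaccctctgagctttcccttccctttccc
Kcnq1: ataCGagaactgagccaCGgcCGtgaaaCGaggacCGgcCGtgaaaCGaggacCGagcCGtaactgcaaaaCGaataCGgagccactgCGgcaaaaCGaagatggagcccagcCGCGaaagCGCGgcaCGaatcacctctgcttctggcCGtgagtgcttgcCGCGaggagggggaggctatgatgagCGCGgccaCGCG
Trappc9: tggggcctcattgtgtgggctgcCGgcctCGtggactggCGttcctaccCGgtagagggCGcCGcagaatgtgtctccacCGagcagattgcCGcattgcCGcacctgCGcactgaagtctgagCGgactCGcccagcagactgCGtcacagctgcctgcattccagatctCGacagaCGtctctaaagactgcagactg

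Another pair led the comparisons of the genotypes: a region of D6Wsu116e (chr6:116192105-116192304), with 8 copies of TGCCGC in 200 bases, and a stretch in the first intron of Cacna1c (chr6:119052399-119052598) with 1 CpG.
D6Wsu116e: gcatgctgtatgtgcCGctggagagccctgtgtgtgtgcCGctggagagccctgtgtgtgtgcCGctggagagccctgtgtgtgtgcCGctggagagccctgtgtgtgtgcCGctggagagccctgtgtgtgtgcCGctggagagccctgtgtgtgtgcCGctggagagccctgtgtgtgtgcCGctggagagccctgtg
Cacna1c: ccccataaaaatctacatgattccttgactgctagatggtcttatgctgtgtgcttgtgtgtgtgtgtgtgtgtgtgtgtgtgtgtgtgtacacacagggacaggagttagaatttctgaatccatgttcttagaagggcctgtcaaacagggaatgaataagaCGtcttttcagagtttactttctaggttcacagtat

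The last set came from the comparison of MEFs with Aid+/+ iPS cells. Gtsf1 (chr15:103242207-103242406) and Lmbr1 (chr5:29682902-29683101) had more tags in MEFs, Mup2 (chr4:60122641-60122840) had fewer, the peak in 2010107G23Rik (chr10:61590616-61590815) was absent from MEFs, and that in Cirbp (chr10:79634567-79634766) was absent from Aid+/+ iPS cells.
Gtsf1: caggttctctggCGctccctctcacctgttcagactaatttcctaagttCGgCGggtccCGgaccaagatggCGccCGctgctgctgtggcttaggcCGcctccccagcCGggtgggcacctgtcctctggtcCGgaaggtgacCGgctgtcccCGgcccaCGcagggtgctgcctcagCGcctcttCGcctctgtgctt
Lmbr1: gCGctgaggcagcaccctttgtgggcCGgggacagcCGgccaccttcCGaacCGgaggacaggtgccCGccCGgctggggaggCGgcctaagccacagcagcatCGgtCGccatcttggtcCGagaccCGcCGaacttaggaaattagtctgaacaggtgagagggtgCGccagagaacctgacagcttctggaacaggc
Mup2: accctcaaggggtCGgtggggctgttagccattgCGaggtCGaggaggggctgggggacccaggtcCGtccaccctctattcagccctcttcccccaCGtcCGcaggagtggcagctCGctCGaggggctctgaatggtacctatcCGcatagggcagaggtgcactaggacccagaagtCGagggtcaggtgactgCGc
2010107G23Rik: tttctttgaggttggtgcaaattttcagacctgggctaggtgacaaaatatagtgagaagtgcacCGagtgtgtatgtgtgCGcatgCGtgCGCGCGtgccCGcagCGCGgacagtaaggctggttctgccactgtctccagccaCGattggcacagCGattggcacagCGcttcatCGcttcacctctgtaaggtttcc
Cirbp: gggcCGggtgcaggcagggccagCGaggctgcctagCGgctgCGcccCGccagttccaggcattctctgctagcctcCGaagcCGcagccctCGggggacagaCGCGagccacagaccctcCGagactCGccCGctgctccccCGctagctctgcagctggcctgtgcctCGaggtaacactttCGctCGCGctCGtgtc

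The files gave between 20.1 and 36.9 M tags per sample, of which 6.65 to 19.6 M were left after removal of duplicates. The median intron peak held 24 to 46 tags. The deposited headers split the samples into 4 sets by the version of the peak caller and the start of the name given to each call. These sets are called runs here. They were inferred, and whether they match library preparation or sequencing is not known. Run A held Aid+/+ iPS 1 and Aid-/- iPS 1, 2 and 4, run B held Aid+/+ iPS 2, 3 and 4, run C held Aid-/- iPS 3, the 3 ES samples and MEF 1, and run D held MEF 2 and 3. No run held Aid+/+ iPS cells together with ES cells or MEFs, so run and cell type cannot be told apart in those comparisons. Peak lists cannot show the deletion in Aid, so the genotypes rest on the labels. Nothing in the sources says that clones of 1 group came from separate animals, so p-values measure the spread between these samples.

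Introns took up 35.2% of autosomal bases and 35.3% of autosomal CpGs but 29.0% of the peaks. Exons, with 2.90% of the bases, held 20.3% of the peaks. The DNA under the intron peaks was rich in CpG for an intron: the median over the 14 samples averaged 3.68 CpG per 100 bp within 150 bases on either side of the summit, while eligible intron DNA held 0.853 CpG per 100 bp. GC content averaged 51.3% at the summits against 42.5% over introns.

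Intron peaks had fewer CpGs than every other class of peak in the same samples. The mean of the sample medians was 3.68 CpG per 100 bp against 3.99 in exon peaks (lower in 12 of 14 samples and equal in the others; exact sign-flip permutation p = 0.000488, adjusted p = 0.000533), 4.18 in intergenic peaks and 4.41 in promoter peaks (lower in 14 of 14 samples for both, p = 0.000122, the smallest that 14 samples allow). Their fold enrichment over the local background was 14.02, against 15.2 in exon and 15.3 in intergenic peaks (lower in 14 of 14 samples for both, exact sign-flip permutation p = 0.000122). It was 14.1 in promoter peaks, and the sign of that difference varied among samples (exact sign-flip permutation p = 0.855). The median width was 609 bp against 640 bp in exon peaks (lower in 13 of 14 samples, exact sign-flip permutation p = 0.000244), 650 bp in promoter peaks and 665 bp in intergenic peaks. With peaks of p at most 1e-10 alone, the differences from exon peaks fell to -0.142 CpG per 100 bp (exact sign-flip permutation p = 0.0703) and -8.64 bp (p = 0.316).

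Along the gene, intron peaks were sparsest next to the 5′ end and in the most distant DNA. In Aid+/+ iPS cells, 25.1 ± 5.08 peaks per Mb (SD, n = 4) lay between 1 and 2 kb from the nearest 5′ end, 36.4 ± 7.72 lay between 10 and 20 kb, and 24.7 ± 4.64 lay beyond 100 kb. Aid-/- iPS cells went from 22.8 to 31.8 to 21.7 peaks per Mb at the same distances, ES cells from 16.9 to 24.8 to 16.9, and MEFs from 10.5 to 15.2 to 11.3. The plot of density by distance shows the same low, high, low order of the means in all 4 groups. Per 10000 CpGs the fall with distance was smaller, from 40.3 to 35.1 peaks in Aid+/+ iPS cells and from 16.9 to 16.1 in MEFs. The low next to the 5′ end remained, with 23.4 peaks in Aid+/+ iPS cells and 9.84 in MEFs between 1 and 2 kb. In Aid+/+ iPS cells the highest mean per 10000 CpGs was 40.6, between 50 and 100 kb.

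**Figure D1:**
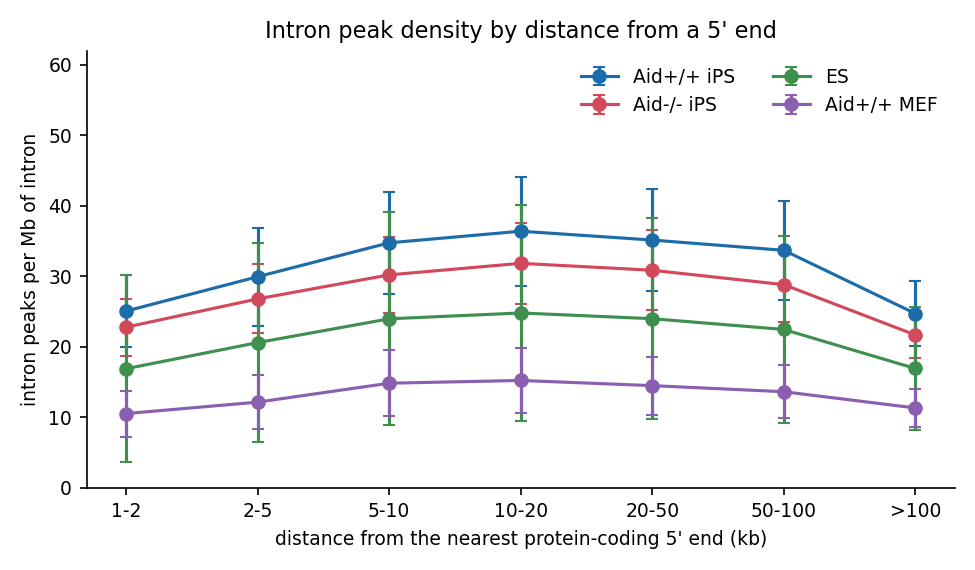
Intron peaks per Mb of eligible intron (y axis) in bins of distance from the nearest protein-coding 5′ end in kb (x axis). Points are group means and bars are 1 SD over 4, 4, 3 and 3 samples. All groups have their highest mean between 10 and 20 kb, 36.4 peaks per Mb in Aid+/+ iPS cells and 15.2 in MEFs.

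First introns, which often hold enhancers and alternative starts, had slightly fewer intron peaks per Mb than later introns. The log2 ratio of first to later introns was -0.11 ± 0.05 (SD, n = 14 samples), lower in 13 of 14 samples (exact sign-flip permutation p = 0.000244). ES 3 was the exception. Per CpG the ratio was -0.17 ± 0.05 and lower in 14 of 14 samples (exact sign-flip permutation p = 0.000122), as first introns held 0.878 CpG per 100 bp and later introns 0.841.

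The number of intron peaks varied as much within groups as between most of them. Aid+/+ iPS 1 to 4 had 20678, 24958, 29307 and 33692 intron peaks. Aid-/- iPS 1 to 4 had 25440, 26003, 26090 and 17475. ES 1 to 3 had 16439, 8541 and 30513, and MEF 1 to 3 had 11274, 14769 and 8242. The iPS genotypes overlapped, ES 2 lay among the MEFs while ES 3 lay among the iPS samples, and all MEFs lay below all Aid+/+ iPS samples. Means were 27159 ± 5602, 23752 ± 4195, 18498 ± 11130 and 11428 ± 3266 (SD, n = 4, 4, 3 and 3).

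Between Aid-/- and Aid+/+ iPS cells, no difference passed the test in any of the 5 measures. The mean number differed by -3407 (exact two-sided permutation p = 0.4, adjusted p = 0.5 over 15 tests). The median fold enrichment was 15.01, 15.1, 15.1 and 13.7 in Aid+/+ iPS cells and 15.8, 16.1, 15.8 and 14.6 in Aid-/- iPS cells, so that 3 Aid-/- samples lay above all Aid+/+ samples, with means of 14.7 and 15.6 (exact permutation p = 0.114, adjusted p = 0.214). Intron peaks held 10.8, 13.7, 14.7 and 16.3% of the filtered tags in Aid+/+ iPS cells and 13.3, 12.9, 15.1 and 10.5% in Aid-/- iPS cells (exact permutation p = 0.514). Within run A, the Aid+/+ sample had 20678 intron peaks and the Aid-/- samples 25440, 26003 and 17475, on both sides of it. Clones of series 979 came from both genotypes (Aid+/+ iPS 3 and 4, Aid-/- iPS 1 and 2). Within it both Aid-/- clones lay below both Aid+/+ clones in number of peaks, share of peaks, share of tags and width, and above them in fold enrichment. The Aid+/+ clones of that series were in run B and the Aid-/- clones in run A, so in that series the genotype cannot be told apart from the run, and 2 against 2 samples cannot pass an exact permutation test.

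Between ES cells and Aid+/+ iPS cells, no difference passed the test in any of the 5 measures. The share of filtered tags in intron peaks was 7.81, 3.45 and 13.3% in ES 1, 2 and 3 (mean 8.18%, exact permutation p = 0.114, adjusted p = 0.214), and the median fold enrichment was 13.6, 11.3 and 14.5 (mean 13.2, p = 0.0857). ES 3 was within the range of Aid+/+ iPS cells in the share of tags, and ES 1 and ES 2 were below it.

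MEFs stood below Aid+/+ iPS cells in 4 measures and above in width, all without overlap. The number of peaks was 11428 against 27159, the share of filtered tags 4.96% against 13.9% (MEF samples 5.30, 5.76 and 3.81%), the median fold enrichment 11.8 against 14.7 (13.4, 11.2 and 11.0) and the median width 702 bp against 589 bp (631, 673 and 801 bp). Each had an exact permutation p of 0.0286, the smallest that 4 against 3 samples allow, and none passed after adjustment over the 15 tests (0.107). Introns held 25.4% of autosomal peaks in MEFs and 29.9% in Aid+/+ iPS cells, again without overlap (exact permutation p = 0.0571). The MEFs were the deepest samples after filtering, with 17.5 to 19.6 M tags against 9.63 to 15.9 M, and had 33500 to 54953 autosomal peaks against 74815 to 106408. With the same number of most significant peaks taken from every sample, the difference in the number of intron peaks was -360 (exact permutation p = 0.143) and that in width 53.8 bp (p = 0.2). In bulk DNA, fewer methylated copies in each cell and fewer cells with methylated copies cannot be told apart.

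The share of intron peaks in CpG-rich DNA was highest in MEFs. These windows were called island-like when GC was at least 50% and the ratio of observed to expected CpG at least 0.6. The island-like share was 36.0, 30.4 and 40.4% in MEFs, 22.6, 17.8, 15.9 and 14.1% in Aid+/+ iPS cells, 20.1, 19.6, 17.7 and 26.1% in Aid-/- iPS cells and 21.8, 27.6 and 17.1% in ES cells, against 0.306% of windows tiled over introns. Every MEF sample lay above every other sample. Across all samples the share was high where peaks were few, from 14.1% in Aid+/+ iPS 4, which had the most peaks, to 40.4% in MEF 3, which had the fewest, although ES 2 had 27.6% with 8541 peaks. This order was not particular to introns. Of intergenic peaks, 45.8, 42.6 and 51.5% were island-like in MEF 1 to 3, against 23.1 to 41.9% in the other samples. Of exon peaks, 36.6, 31.1 and 44.5% were, against 15.6 to 27.1%. TGCCGC was found in 12.8, 13.2, 13.7 and 16.04% of intron peak windows on average in Aid+/+ iPS, Aid-/- iPS, ES and MEF samples, against 1.89% of tiled windows (both strands). The plot of intron peaks per sample shows these opposite orders side by side.

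**Figure D2:**
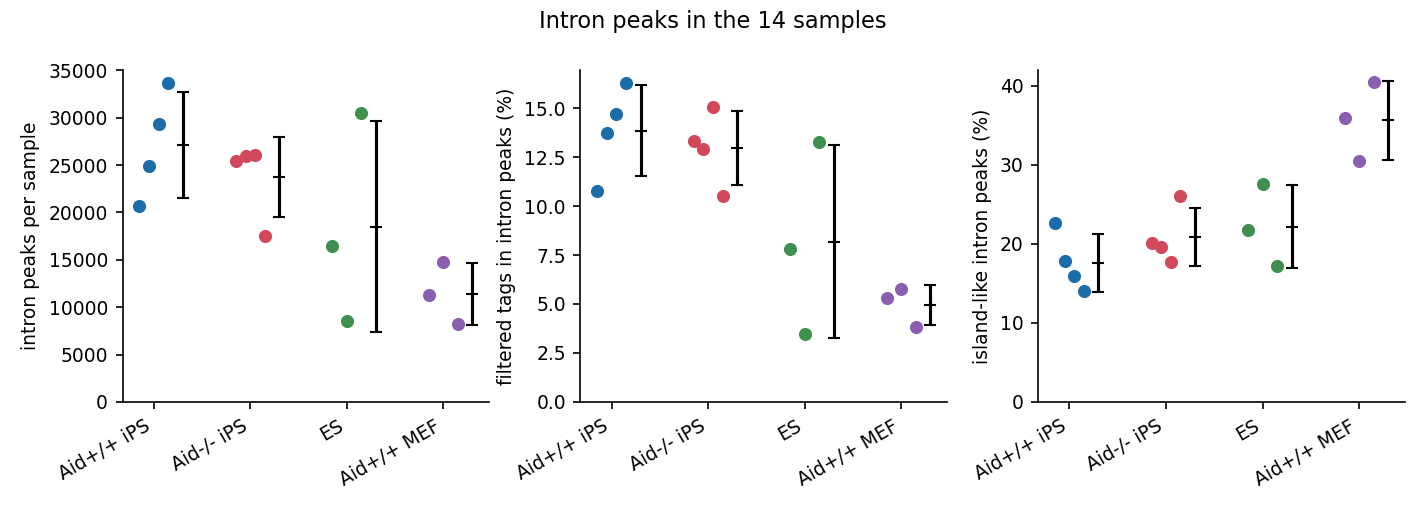
Number of intron peaks (left), percent of filtered tags in them (middle) and percent of intron peaks that were island-like (right) in each of the 14 samples. Points are samples and bars are group means with 1 SD. MEFs have the lowest means in the left and middle panels (samples at 8242 to 14769 peaks and 3.81 to 5.76% of tags). ES 2, with 8541 peaks and 3.45% of tags, lies among them in the left panel and below them in the middle panel. All MEF samples sit highest in the right panel (30.4 to 40.4%).

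Peaks of the 14 samples were merged where they overlapped, which gave 147237 regions, of which 47275 (32.1%) were intron regions, with most of their summits in introns. All 14 samples had a peak in 3156 of them (6.68%), against 11.4% of the regions of other classes. A single sample had a peak in 12515 intron regions (26.5%), against 20.4% of the others. Of these, 2926 were found in Aid+/+ iPS 4 and 2114 in ES 3, the samples with the largest and the next largest number of intron peaks.

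CpG content was highest in the intron regions that most samples shared. Regions of 1 sample held a median of 2.33 CpG per 100 bp and 2.12% were island-like, those of 7 samples held 3.32 and 8.002%, and those of all 14 samples held 4.98 and 56.9%. TGCCGC was in 6.79% of the windows of regions of 1 sample and in 22.8% of those of all 14. Regions of all samples also held more repeated sequence. The central 31 bases occurred at a single place in mm9 for 91.8% of the regions of 1 sample. They did so for 43.8% of the regions of 14, against 89.1% of tiled windows. Copies were counted wherever they lay, so repeats in tandem inside a region counted too. The plot of regions by number of samples shows the rise in the island-like share from 11 samples on.

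**Figure D3:**
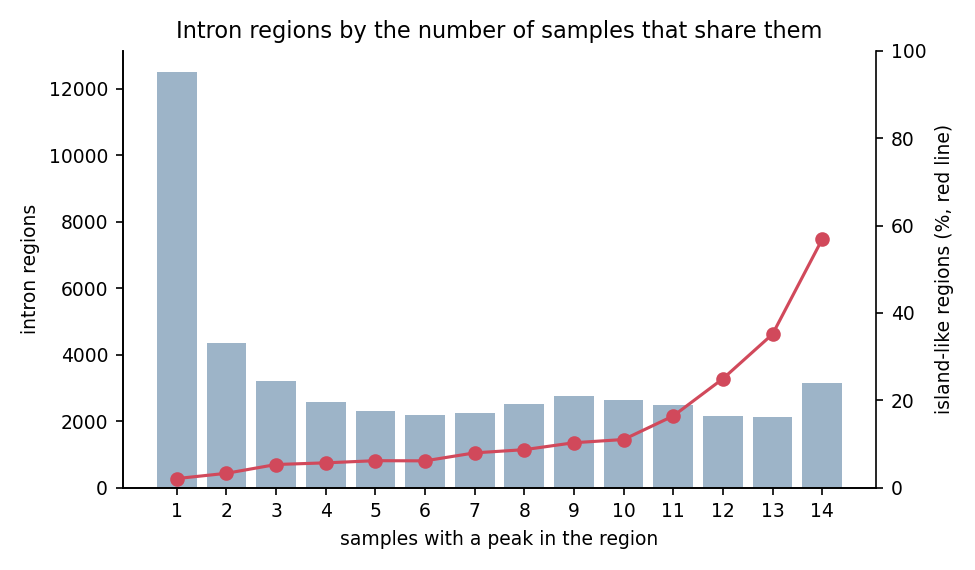
Number of intron regions (bars, left axis) and percent of them that were island-like (red line, right axis) by how many of the 14 samples had a peak in the region (x axis). The bars stand at 12515 regions in 1 sample, between 2144 and 4359 in 2 to 13 samples, and at 3156 in 14, while the island-like share goes from 2.12% to 56.9%.

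Regions that followed cell type exactly were few. Only 50 intron regions (0.106% of them) had a peak in all 8 iPS samples and in no ES or MEF sample. Another 465 (0.984%) had one in all 8 iPS and all 3 ES samples and in no MEF sample. A peak in all 3 MEF samples and no other was found in 51 (0.108%). These patterns were counted in intron regions alone, so whether the shares are particular to introns was not tested. The MEF set was 58.8% island-like, the set of iPS and ES samples 10.3%. A further 3013 regions (6.37%) had peaks in all 8 iPS samples and ES 3 but not in ES 1 or ES 2. By contrast, 34 (0.0719%) had peaks in all iPS samples, ES 1 and ES 2 but not in ES 3. ES 3 also had more intron peaks (30513) than ES 1 (16439) and ES 2 (8541).

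The 5 most significant regions shared by all samples were strongly enriched in every group. In Cbfb (chr8:107735546-107737299) fold enrichment lay between 14.8 in Aid+/+ iPS 3 and 17.8 in ES 2 (median 16.4), on 767 to 1773 tags per sample. The group means were 15.4 ± 0.610, 16.5 ± 0.430, 16.6 ± 1.07 and 16.8 ± 0.214 (SD) in Aid+/+ iPS, Aid-/- iPS, ES and MEF samples. Its central 31 bases occur 19 times in mm9, some of them in tandem within the printed window. Fbxo18 (chr2:11665418-11667233), a DNA helicase, Gm608 (chr16:44194504-44195939) and Dhx35 (chr2:158627743-158629041), an RNA helicase gene, had fold enrichments of 14.5 to 18.5, 21.7 to 27.5 and 19.9 to 32.7, and their central 31 bases occurred 11, 9 and 3 times. Chl1 (chr6:103597709-103599713) differed from these in base composition, with 1.00 CpG per 100 bp and 31.9% GC, yet it reached 32.4 to 45.9-fold enrichment in every sample. Its central 31 bases occurred 3 times in mm9, and parts of its printed sequence recur within the window. The part of read placement in this enrichment was not tested.

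Intron regions were spread over many genes. Of 21418 autosomal protein-coding genes, 17914 had eligible intron DNA, 9759 had an intron region and 2048 had a region shared by all 14 samples. Among the 4086 genes with at least 50 kb of eligible intron, the median was 4.89 regions per 100 kb, and this density followed CpG content across genes (Spearman rho = 0.859, a description, as genes share samples and base composition). Genes of 50 to 100 kb of intron had a median of 5.12 regions per 100 kb, and those in the longest class of introns had 2.52, with medians of 0.883 and 0.640 CpG per 100 bp.

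Wwox, a tumor suppressor gene at a common fragile site, held 162 intron regions over 901 kb of intron, Camta1, a calmodulin-binding transcription activator, held 137, and Cdh13, a cadherin without a cytoplasmic domain, held 114. Gm20388 and Fgfr2 had more, 674 and 195, but their annotated spans of 4.43 Mb and 3.01 Mb cover other genes and the DNA between them. Leaving out summits whose only hosts were genes drawn over more than 2.5 Mb left 8157 to 33291 intron peaks per sample. Per 100 kb, among genes with at least 50 kb of eligible intron, Zfpm1, the Gata cofactor Fog1, stood first with 29.4 regions, followed by Kif14, a mitotic kinesin, with 25.6, Glb1, the lysosomal beta-galactosidase, with 24.7, Capzb, an actin capping subunit, with 23.8, and Ccdc85c with 23.7. Zfpm1 had 9 to 11 of its 15 regions in each Aid+/+ iPS sample and 5 in each MEF sample, and Glb1 had 6 to 10 of 16 in Aid+/+ iPS samples and 1, 5 and 0 in MEFs. At the other end, 233 genes with at least 50 kb of intron had no region in any sample. The longest were Ccdc85a (189 kb, 0.332 CpG per 100 bp), the nuclear receptor gene Nr6a1 (189 kb), Dbc1, the protease gene Tll1 and the unconventional myosin gene Myo9a.

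Density differed among the gene lists chosen for this tissue and did not follow CpG content in all of them. Long neural adhesion, synapse and fragile-site genes (28 genes, 1079 regions) had 3.06 regions per 100 kb at 0.628 CpG per 100 bp, against 5.62 and 0.854 over all genes. Broadly expressed chromatin regulators had 6.64 at 0.949 CpG per 100 bp, imprinted genes with a known intronic element 6.30 at 0.899, and fibroblast and mesenchymal genes 6.13 at 0.948. Pluripotency network genes had 5.90 at 1.07, the highest CpG content of the 5 lists. In the chromatin list Arid1b, a subunit of the BAF remodeling complex, had the most (52), and the remodeler Chd7 had 18. Fibroblast genes were led by the transcription factors Runx1 (37) and Runx2 (16) and the matrix gene Fbn1 (12).

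The pluripotency list held 47 regions in 12 of the 22 genes with eligible intron. Nr5a2 (14) and Esrrb (13), both orphan nuclear receptors of the naive state, had most of them, and the de novo methyltransferase gene Dnmt3a had 6. Nanog, Klf4 and Sall4 had none, and Pou5f1, Sox2 and Utf1 had no intron DNA more than 1 kb from a 5′ end. Of the 47 regions, 13 were present in every Aid+/+ iPS sample, 10 in every Aid-/- iPS sample, 5 in every ES sample and 4 in every MEF sample. Over all genes the counts were 16241, 14329, 5744 and 6125 of 48269 regions, which fell from iPS cells to ES cells and MEFs as well.

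Of the 9 listed imprinted genes with a known methylated element inside an intron, 8 had an intron region. Introns of 3 of them, Igf2r, Kcnq1 and Trappc9, each held an island-like region with TGCCGC and a peak in all 14 samples. Commd1, H13, Herc3, Grb10 and Inpp5f had no region shared by all 14. TGCCGC was in 22.8% of all intron regions of 14 samples. Igf2r, Kcnq1 and Trappc9 are known to contain, within introns, the starts of the noncoding RNAs Airn, Kcnq1ot1 and Peg13, whose promoters are methylated on the maternal allele. The coordinates of these elements were not used here, so the regions are named by their hosts.

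In Igf2r (chr17:12933855-12935941) the fold enrichment was 14.5, 14.3, 13.5 and 12.8 in Aid+/+ iPS 1 to 4, 16.8, 13.7, 14.4 and 14.7 in Aid-/- iPS 1 to 4, 15.7, 20.4 and 15.8 in ES 1 to 3 and 18.1, 20.1 and 20.4 in MEF 1 to 3. In Kcnq1 (chr7:150480681-150483031) the values were 17.5, 9.41, 10.7 and 7.94, then 11.9, 11.6, 9.88 and 13.4, then 13.97, 21.4 and 13.7, then 20.0, 17.2 and 22.0 in the same order. Trappc9 (chr15:72639331-72641750) gave 17.2, 10.8, 14.1 and 8.65, then 13.1, 15.1, 10.7 and 12.4, then 14.7, 18.7 and 12.4, then 18.6, 16.7 and 21.4. The iPS genotypes overlapped at all 3 loci. ES 2 was the highest ES sample at each, and MEFs lay above all Aid+/+ iPS samples in Igf2r but overlapped Aid+/+ iPS 1 in Kcnq1 and Trappc9, as the plot of imprinted introns shows.

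**Figure D4:**
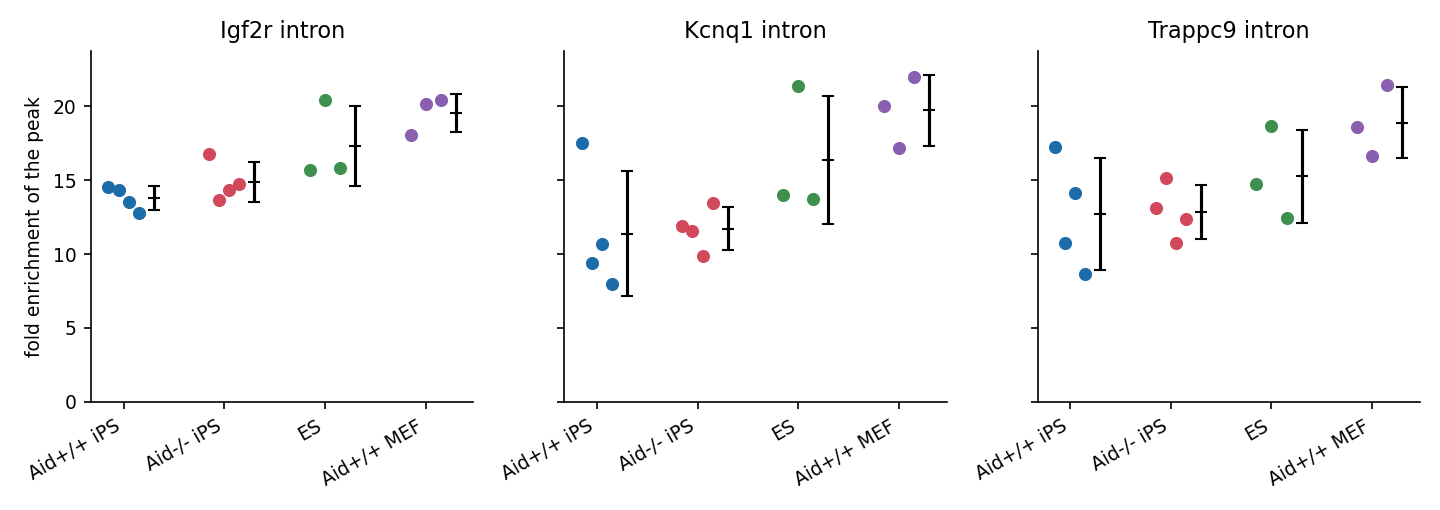
Fold enrichment of the peak over the local background (y axis) in introns of Igf2r, Kcnq1 and Trappc9 in each sample of the 4 groups. Points are samples and bars are group means with 1 SD. Aid+/+ iPS 1 reaches 17.5 in Kcnq1 and 17.2 in Trappc9, above the other Aid+/+ iPS samples, while MEFs range from 16.7 to 22.0 over the 3 loci.

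Presence and absence was compared first, by the rule of the study's methods. Bases under a peak in every sample of a group formed stretches, and a stretch counted as absent from the second group if none of that group's peaks touched it. No p-value can be given for such calls. Of 16557 intron stretches common to Aid+/+ iPS cells, 80 (0.483%) were absent from all Aid-/- iPS samples, against 0.415% of stretches of all classes, and 13041 (78.8%) were present in all of them. Of 14613 intron stretches common to Aid-/- iPS cells, 10 (0.0684%) were absent from Aid+/+ iPS cells, against 0.101% of all stretches. Both shares were close to those of all stretches.

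These calls were weak peaks and moved with single samples. The 80 stretches had a median fold enrichment of 9.14 and 18 tags in Aid+/+ iPS 1, against 20.2 and 62 for stretches present in both genotypes, and with carrying peaks of p at most 1e-10 there were 3. Without Aid+/+ iPS 1 they became 532, without Aid+/+ iPS 2 166, and without Aid-/- iPS 1, 2 or 3 they became 146, 154 and 178. The 10 became 40, 19 and 32 without Aid+/+ iPS 1, 3 or 4, and 19, 19, 76 and 45 without Aid-/- iPS 1, 2, 3 or 4. The central 31 bases were found at a single place in mm9 for 88.8% of the 80 stretches and for 30% of the 10, whose median was 506 places.

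The most significant of the stretches absent from Aid-/- iPS cells lay in Cacna1c (chr6:119052342-119052668), which encodes the pore of an L-type calcium channel. Its fold enrichment was 23.0, 20.2, 17.8 and 20.2 in Aid+/+ iPS 1 to 4, on 62, 46, 33 and 37 tags. Peaks were also present in ES 1, ES 2 and all 3 MEF samples, the nearest Aid-/- peak was 709 bp away, and the window held 0.332 CpG per 100 bp. Ttc29 (chr8:80843595-80843929) followed with 12.4, 20.5, 17.8 and 17.4 and Chst1 (chr2:92446871-92447159), a carbohydrate sulfotransferase, with 13.1, 14.3, 12.7 and 14.2, neither with a peak in ES cells or MEFs. In the opposite direction, Scp2 (chr4:107732772-107733091), a sterol carrier, gave 10.3, 13.8, 13.9 and 10.8 in Aid-/- iPS 1 to 4, Lsamp (chr16:41575241-41575984) 9.23, 11.5, 10.6 and 9.24, and the angiopoietin receptor gene Tek (chr4:94511883-94512294) 11.3, 17.3, 13.2 and 19.3. All of these had a peak in ES 3, and Lsamp and Tek had one in every MEF sample.

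Where every sample of both groups had a peak, the tag counts were then compared with edgeR's quasi-likelihood test, with TMM scaling and Benjamini-Hochberg adjustment over regions of all classes. Called regions outside the gene lists were named only where the groups did not overlap, so separation in them follows from the choice. Between the genotypes 12532 intron regions were tested, and their log2 differences were centered on 0.00 with an SD of 0.26. No region was higher in Aid-/- iPS cells (0% of regions of all classes) and 1 was lower (0.00208% of all). At an unadjusted p under 0.05 there were 480 intron regions (3.83%, against 3.61% of all regions), and DESeq2 called 3 higher and 6 lower. Without Aid+/+ iPS 1, edgeR called 7 higher. Counts by DESeq2 and under other settings, here and below, were made for intron regions alone. Whether they are particular to introns was not tested.

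The region lower in Aid-/- iPS cells lay in D6Wsu116e (chr6:116191600-116192896), 22.0 kb from the nearest 5′ end. It had 45.8, 54.7, 39.1 and 33.5 CPM (tags per M tags at the tested regions, after TMM scaling) in Aid+/+ iPS 1 to 4 and 13.5, 11.1, 14.3 and 9.79 in Aid-/- iPS 1 to 4. Its central 31 bases occur 10 times in mm9, some of them in tandem within the printed window. The part of read placement at such repeats was not tested. The groups did not overlap, and the log2 difference was -1.84 (edgeR adjusted p = 0.00554, lower in 4 of 4 samples). The call was lost without Aid-/- iPS 2 (edgeR adjusted p = 0.0782) or 4 (0.0521), in run A alone (0.0820), with the clone series as a block (0.0841) and with peak length as an offset (0.102), with log2 differences of -1.56 to -1.98. On the fold enrichment the difference was -0.50 (limma adjusted p = 1.00).

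The regions with the lowest p in the other direction did not pass. In Synj2 (chr17:5948886-5950310), a phosphoinositide phosphatase, the values were 37.1, 42.1, 33.9 and 31.8 CPM in Aid+/+ iPS cells and 85.0, 84.1, 61.2 and 67.1 in Aid-/- iPS cells (log2 difference 1.04, edgeR adjusted p = 0.280). The region in Gm20388 (chr8:126124060-126128393) gave 35.3, 35.2, 18.1 and 29.2 against 58.8, 76.8, 55.5 and 74.0 (1.17, edgeR adjusted p = 0.280). That difference was -0.01 with peak length as an offset and -0.16 on the fold enrichment. DESeq2 called both (adjusted p = 0.000505 and 0.00800), and edgeR called Gm20388 without Aid+/+ iPS 1 (adjusted p = 0.0413) and with filtered tags as the library size (0.0445). No region of the 5 gene lists was called between the genotypes, among 32 tested in chromatin regulators, 26 in fibroblast genes, 28 in imprinted genes, 322 in long neural genes and 9 in pluripotency genes, and the list medians lay between -0.04 and 0.08 against 0.00 for all intron regions.

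Between Aid+/+ iPS cells and ES cells, 323 of the 16557 intron stretches (1.95%) were absent from all ES samples, against 1.93% of all stretches, and 16 of 6137 ES stretches (0.261%) were absent from Aid+/+ iPS cells, against 0.186%. Without ES 3 the 323 became 5214, and without Aid+/+ iPS 1 they became 1523. The 16 became 25, 168 and 116 without ES 1, 2 or 3 and 31 without Aid+/+ iPS 1. Most significant among the stretches absent from ES cells were Gm1305 (chr1:181637089-181637497, fold enrichment 16.8, 15.9, 14.6 and 13.2 in Aid+/+ iPS 1 to 4), the protocadherin gene Pcdh9 (chr14:93594322-93594380, 17.3, 22.2, 21.8 and 17.6) and the NURF subunit gene Bptf (chr11:106952048-106952383, 16.3, 32.7, 32.6 and 22.0). The Pcdh9 stretch was 59 bp long, with an ES peak 32 bp away.

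Bfsp2 (chr9:103374136-103374499), a lens filament gene, led the ES stretches that were absent from Aid+/+ iPS cells. Its fold enrichment was 27.1, 31.8 and 16.4 in ES 1 to 3, with no peak in any iPS or MEF sample. Sh3tc2 on chromosome 18 gave 17.1, 17.6 and 16.1 and also had no peak outside ES cells. Sntg1 (chr1:9230650-9231253), a syntrophin gene, gave 7.69, 7.81 and 7.60, had peaks in Aid-/- iPS 2 and 3 and in every MEF sample, and its central 31 bases occur 632 times in mm9.

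By tag counts 5422 intron regions were tested, 2 were higher in ES cells (0.0133% of regions of all classes) and 0 were lower (0.00442% of all). At an unadjusted p under 0.05 there were 580 intron regions (10.7%, against 10.1% of all regions), and DESeq2 called 64 higher and 18 lower. Without ES 3, edgeR called 257 higher and 317 lower, and without any other library 0 or 1 higher and 0 lower. Regions of other classes were not counted under these settings. No region of the gene lists was called, among 13, 9, 9, 169 and 5 tested in chromatin, fibroblast, imprinted, long neural and pluripotency genes.

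The region of Acnat1 (chr4:49478983-49480505), an acyltransferase gene, had 15.9, 7.24, 4.96 and 10.2 CPM in Aid+/+ iPS 1 to 4 and 78.8, 106 and 63.2 in ES 1 to 3. The ES samples lay above all iPS samples, with a log2 difference of 3.09 (edgeR adjusted p = 0.0206). Without Aid+/+ iPS 2 or 4, ES 1 or ES 2, the edgeR adjusted p was 0.108, 0.102, 0.113 and 0.0982. Pcdhgc5 on chromosome 18, a gamma protocadherin gene, had 17.8, 17.7, 16.7 and 22.1 against 48.9, 108 and 101 (2.21, edgeR adjusted p = 0.0292), and its edgeR adjusted p was 0.128, 0.155, 0.128 and 0.138 without Aid+/+ iPS 1, 2, 3 or 4 and 0.132 without ES 2. Neither passed with filtered tags as the library size (edgeR adjusted p = 0.132 for both) or on the fold enrichment (limma adjusted p = 0.488 and 0.346). Lowest in p among those lower in ES cells, and not passing, were Khdrbs2 (chr1:32434769-32435994, log2 difference -1.95, edgeR adjusted p = 0.118), an RNA-binding protein gene, and Kctd8 (chr5:69513930-69516009, -1.98, edgeR adjusted p = 0.181), which encodes a GABA-B receptor subunit and whose difference was 0.21 on the fold enrichment. Without ES 3 edgeR called both (adjusted p = 0.00576 and 0.000325), and so did DESeq2 (8.73e-05 and 0.000639). The median of all regions was -0.03 under TMM scaling, -0.68 with filtered tags and -0.17 on the fold enrichment. The central 31 bases occurred 5 times in mm9 for Acnat1, 34 for Khdrbs2 and 16 for Kctd8. The windows of Khdrbs2 and Kctd8 held copies of the same sequence in opposite directions, so they are not separate findings about their host genes.

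Between Aid+/+ iPS cells and MEFs, presence and absence called many stretches. Of the 16557 intron stretches of Aid+/+ iPS cells, 5438 (32.8%) were absent from all MEF samples, against 28.2% of all stretches, and 5204 (31.4%) were present in all of them. Of 6520 intron stretches of MEFs, 411 (6.30%) were absent from Aid+/+ iPS cells, against 6.37% of all. Without Aid+/+ iPS 1 the counts were 9664 and 645, and with carrying peaks of p at most 1e-10 the former was 2491.

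The Aid+/+ iPS stretches absent from MEFs and the MEF stretches absent from Aid+/+ iPS cells differed in sequence. Stretches absent from MEFs held a median of 3.32 CpG per 100 bp, 6.86% were island-like, and the central 31 bases were at a single place for 89.9%. Stretches found in MEFs and not in Aid+/+ iPS cells held 5.32 CpG per 100 bp, 40.6% were island-like, and 43.3% were at a single place. Stretches of Aid+/+ iPS cells that all MEFs shared held 4.98, with 52.7% and 49.1%.

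Named by the significance of their peaks, the leading stretches absent from MEFs also had peaks in Aid-/- iPS and ES samples. In 2010107G23Rik (chr10:61590430-61590910) fold enrichment was 42.1, 41.3, 41.5 and 35.6 in Aid+/+ iPS 1 to 4, and peaks were present in all Aid-/- iPS samples, ES 1 and ES 3. The homeobox gene Cux1 (chr5:136749224-136749819) gave 29.6, 35.2, 35.0 and 28.02 and 1300017J02Rik (chr9:103154476-103154923) 40.2, 37.7, 38.7 and 35.1, both with peaks in every Aid-/- iPS and ES sample. The stretches found in MEFs had peaks in some of these samples too. Cirbp (chr10:79634176-79635305), a cold-inducible RNA-binding protein gene, gave 18.3, 18.5 and 22.4 in MEF 1 to 3 on 537, 373 and 435 tags, with an Aid+/+ iPS peak 158 bp away and peaks in Aid-/- iPS 2, ES 1 and ES 3. Its summit lay 1.02 kb from the nearest 5′ end, just beyond the promoter limit of 1 kb. Enpp2 (chr15:54746000-54746646), the gene of autotaxin, gave 23.3, 22.9 and 24.3, with a peak elsewhere only in ES 3, and a stretch in the drawn span of Fgfr2 (chr7:138630870-138632584) gave 11.9, 10.1 and 11.1, with peaks in all Aid-/- iPS samples and ES 3.

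At the 4899 intron regions shared by all samples of both groups, 1128 (23.0%) had more tags in MEFs, against 23.7% of all regions, and 986 (20.1%) had fewer, against 19.9%. Both shares were close to those of all regions. The direction of the whole set depended on the scaling: with filtered tags as the library size, the median of all regions shifted to -1.29 and 236 intron regions were higher and 3827 lower, and on the fold enrichment, with a median of -0.27, 199 were higher and 1462 lower. Lower calls numbered 616 without Aid+/+ iPS 3, 596 without MEF 1 and 603 without MEF 3. Regions of other classes were not counted under these settings. Directions below are relative to the TMM scaling. Regions higher in MEFs held 5.65 CpG per 100 bp and were 64.1% island-like, those lower held 4.65 and 48.3%, and all tested held 4.98 and 52.4%.

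The region with the lowest p lay in Gtsf1 (chr15:103240649-103243343), which encodes a factor of retrotransposon silencing by piRNA in male germ cells. It had 9.43, 7.68, 8.22 and 10.1 CPM in Aid+/+ iPS 1 to 4 and 222, 211 and 209 in MEF 1 to 3 (log2 difference 4.59, edgeR adjusted p = 1.44e-08), but on the fold enrichment the difference was -0.51 (limma adjusted p = 0.147). Its central 31 bases occur 1457 times in mm9. Cacna2d1 (chr5:15577773-15579234), a calcium channel subunit gene, had 3.81, 4.89, 3.79 and 6.004 against 91.5, 88.2 and 95.7 (4.33, edgeR adjusted p = 1.87e-08). Lmbr1 (chr5:29681574-29683653), whose introns are known to hold the limb enhancer of Shh, had 9.62, 11.4, 10.1 and 13.9 against 154, 149 and 159 (3.78, edgeR adjusted p = 1.87e-08, and 0.10 on the fold enrichment, limma adjusted p = 0.730). Sncaip on chromosome 18 rose by 4.24 (edgeR adjusted p = 1.96e-08). The central 31 bases of the last 3 occur 11, 6 and 214 times. In each of these the MEF samples were close to each other and all far above the iPS samples, which the choice by lowest p without overlap favours. The windows of Gtsf1, Cacna2d1 and Lmbr1 held copies of the same sequence, in Lmbr1 in the opposite direction. They are therefore not separate findings about their host genes. Related copies lay in the windows of Lsamp, Tek, Sntg1, Acnat1 and the Fgfr2 stretch named above.

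Regions lower in MEFs changed less. Mup2 (chr4:60121685-60123459), a major urinary protein gene, had 38.6, 58.4, 52.7 and 51.2 CPM in Aid+/+ iPS 1 to 4 and 8.57, 10.2 and 12.6 in MEF 1 to 3 (log2 difference -2.28, edgeR adjusted p = 5.57e-06), and it kept its direction and its call in every setting tried. The complement protease gene C1s (chr6:124556238-124559072) had 57.0, 82.8, 84.7 and 81.8 against 17.8, 27.8 and 17.3 (-1.86, edgeR adjusted p = 2.90e-05). At both, all iPS samples lay above the MEFs. 1700007B14Rik (chr8:78395338-78398847) fell by 1.38 (edgeR adjusted p = 8.20e-05). C1s and 1700007B14Rik were not called on the fold enrichment (limma adjusted p = 0.243 and 0.584), and the latter was not called with peak length as an offset (edgeR adjusted p = 0.837). The central 31 bases occur once in mm9 for Mup2 and C1s and 508 times for 1700007B14Rik.

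A run of 16 bases, CAGACAGCCGGCCACC, or its reverse complement was the most frequent among windows of regions higher in MEFs. It was chosen after the values were seen, so its numbers are a description without a test. It occurs 2899 times in mm9 and in 0.0153% of tiled intron windows. Of the 132 tested regions with it, 122 were higher in MEFs and 0 lower, with a median log2 difference of 2.13 against -0.09 for the other intron regions, but on the fold enrichment 9 were higher and 6 lower, with a median of -0.05. With filtered tags as the library size 75 were higher and 10 lower (median 0.88), and with peak length as an offset 116 and 1 (1.81). The median was 14.97, 11.3, 12.1 and 12.955 CPM in Aid+/+ iPS 1 to 4 and 64.7, 58.5 and 55.3 in MEF 1 to 3, while the other intron regions lay between 24.3 and 29.7 in all 7 samples. Between the genotypes 0 of 129 such regions were called (edgeR, median 0.12), and between ES and Aid+/+ iPS cells 0 of 77 (median -0.02). Counts of tags at repeated sequences depend on how the aligner placed reads that fit several places, and its part in these values was not tested. The plot of MEF against iPS tags shows these regions in the upper part of the cloud.

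**Figure D5:**
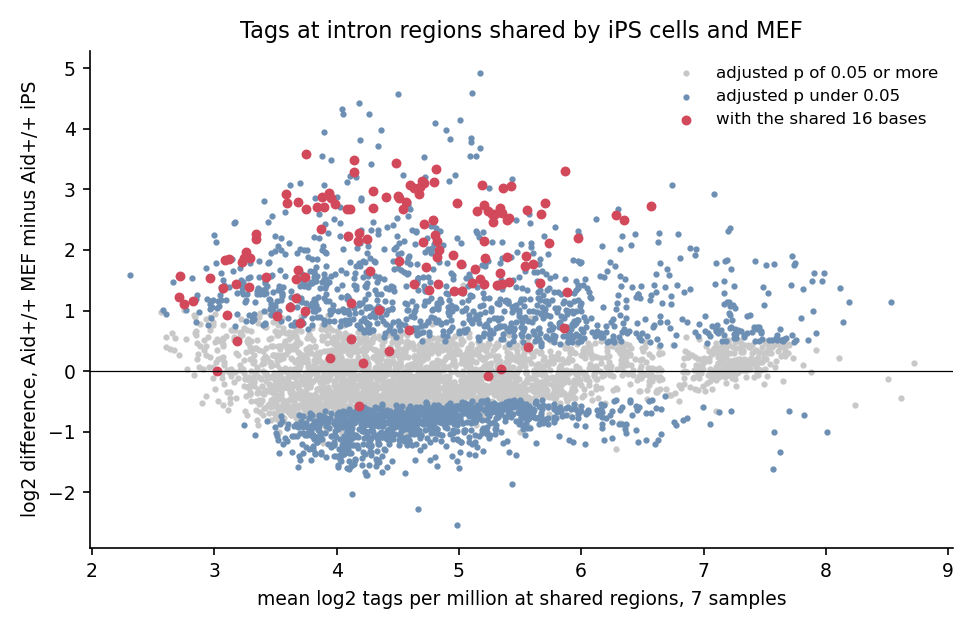
Log2 difference in tags, MEF minus Aid+/+ iPS (y axis), against the mean log2 CPM over the 7 samples (x axis), for the 4899 intron regions tested with edgeR. Blue points have an adjusted p under 0.05, and red points are the 132 regions with the shared 16 bases, 122 of them called higher under TMM scaling (9 on the fold enrichment).

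Among genes of the lists, few intron regions could be tested in MEFs, and their counts stand against 23.0% higher and 20.1% lower among all intron regions tested. Fibroblast genes had 6, of which the fibronectin gene Fn1 (1.61, edgeR adjusted p = 3.48e-06) and the TGF-beta receptor gene Tgfbr2 (0.78, edgeR adjusted p = 0.0112) were higher, though with filtered tags as the library size the differences were 0.36 (edgeR adjusted p = 0.149) and -0.48 (0.0984). Pluripotency genes had 3, and both higher regions lay in Jarid2, a partner of Polycomb complex 2 (2.13, edgeR adjusted p = 9.63e-06, and 1.39, 0.0180). On the fold enrichment those differences were -0.00 and 0.23. Chromatin regulators had 10, with a pair in the acetyltransferase scaffold gene Trrap higher (0.64 and 0.56, but -0.64 and -0.73 with filtered tags) and the methyltransferase gene Ehmt1 and Chd7 lower (-0.78 and -0.86, edgeR adjusted p = 0.0207 and 0.00749, and -2.01 and -2.12 with filtered tags). Long neural genes had 146, with 29 higher and 33 lower and a median of -0.26 against -0.06 for all intron regions, and both shares were close to those of all intron regions.

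Of 8 regions tested in imprinted genes, 2 were higher in MEFs and 1 lower, against 23.0% and 20.1% of all intron regions. The Igf2r region printed above was higher by 0.80 (edgeR adjusted p = 0.00623) and by 0.50 on the fold enrichment (limma adjusted p = 0.0469), but with filtered tags as the library size it was -0.48 (edgeR adjusted p = 0.0494). Trappc9 gave 0.47 (edgeR adjusted p = 0.0344), 0.61 on the fold enrichment (limma adjusted p = 0.0722) and -0.81 with filtered tags. Kcnq1 gave 0.24 (edgeR adjusted p = 0.293), 0.85 on the fold enrichment (limma adjusted p = 0.0266) and -1.04 with filtered tags. Another Igf2r region (chr17:12880196-12882454), 12.1 kb from the nearest 5′ end, was lower by 0.75 on the log2 scale (edgeR adjusted p = 0.0485), but its difference on the fold enrichment was -0.07 (limma adjusted p = 0.775). Other Trappc9 regions were not called by tags but were lower on the fold enrichment, at chr15:72697278-72698133 (-0.81 by tags, edgeR adjusted p = 0.0546, and -1.44, limma adjusted p = 0.000497), chr15:72686887-72687687 (-0.63, 0.0638, and -1.16, 0.00549) and chr15:72764213-72764922 (-0.70, 0.0731, and -0.67, 0.0176). The sign at the 3 island-like imprinted regions followed the scaling.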

How the data were processed

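MBD-seq peak lists of 14 samples were analysed. Per the submitters' processing notes, the authors ran CASAVA 1.8.1, BWA 0.5.9rc1 and MACS 1.4.1 against mm9 (the deposited headers of run C name MACS 1.4.0rc2), and called peaks per sample with no control sample. The deposited values were the tag count of each peak, a score (-10 times the log10 of the peak's p-value, capped), and the fold enrichment, a ratio over the local background of the same sample. The sequencer is named differently in the labels and in the paper.

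Summits were placed in promoters (within 1 kb of a protein-coding 5′ end), exons, introns or intergenic DNA, in that order, from GENCODE vM1. Summits in exons of any annotated transcript, noncoding ones included, were not counted as intron. Base composition was taken from NCBI37 over 150 bases on either side of each summit, and windows of 200 bp are printed. Group means were compared by exact permutation, and classes within samples by exact sign-flip permutation. Stretches were called present or absent by the overlap rule of the study's methods. Tags summed per merged region were tested with edgeR 4.0.16 (quasi-likelihood, TMM, adjusted p under 0.05 over all autosomal regions with a peak in every sample compared), so regions that lost their peak in a group were not tested. CPM are tags per M tags at the tested regions after TMM scaling. DESeq2 1.42.0 and limma 3.58.1 (on log2 fold enrichment, no pseudocount) were alternatives, in R 4.3.3, with Python 3.11.15 for the rest. Scripts were tested on simulated data.

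Named regions were the 3 most significant stretches of at least 50 bp per direction, the 4 regions of lowest p per direction among those called with groups that did not overlap (the 2 lowest where none was called), the 5 most significant regions of all 14 samples, and the 5 host genes with most regions in all or per 100 kb. Sample numbers of the iPS and ES groups follow accession order. The peaks examined and the gene lists were chosen with earlier results of these data known. Some regions and genes that these rules would name are not reported here.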

Additional observations from a re-analysis of the deposited data

Results flagged for a closer look

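Of 14 checks for a sample far from the others of its group (groups of 4 samples, 95% critical value of Dixon's ratio), 2 were met, and chance flags about 1 in 20 groups. Aid+/+ iPS 4 had a median fold enrichment of 13.73 over its intron peaks, below the 15.01 to 15.12 of the other Aid+/+ iPS samples, and the gap took up 0.921 of the range of the group. It was also the sample with the most intron peaks (33692) and the fewest filtered tags of its group (9.63 M). Aid-/- iPS 4 had 17475 intron peaks, below the 25440 to 26090 of the other Aid-/- iPS samples, with a gap of 0.925 of the range. Its intron peaks were 26.1% island-like, the highest share of the 8 iPS samples. The cause was not tested.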

How the results depend on the processing

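Of the results that answered a comparison, settings other than leaving out a sample left 178 values on the same side, while 23 counts or values moved, 5 no longer passed, 2 newly passed and 9 reversed. With peaks of p at most 1e-10, the MEF differences were -5.58 percentage points in share (exact permutation p = 0.0286) and -2.69 in fold enrichment (p = 0.0571), intron minus exon was -0.142 CpG per 100 bp and -8.64 bp, and the stretches numbered 3 (Aid+/+ against Aid-/- iPS), 0 (the converse), 36 (Aid+/+ iPS against ES), 8 (the converse) and 2491 (against MEF). With equal numbers of the most significant peaks, the genotype differences were 47.5 peaks, 0.150 and 0.00575 percentage points of peaks and tags and -0.420 in fold enrichment, all reversed. The ES differences were then 485 peaks, 1.53 points and -73.8 bp (reversed) and -2.92 points of tags (exact permutation p = 0.0286), and the MEF differences -360 peaks and 53.8 bp (no longer at the threshold). Intron minus promoter fold enrichment reversed to 0.148 with a 2 kb promoter window and 0.358 without MEFs. Merged peaks gave 9 ES stretches. By DESeq2 3 regions were higher and 6 lower in Aid-/- iPS cells, and 64 and 18 in ES cells. Filtered tags as the library size gave 1 and 3 (genotype), 0 higher (ES) and 236 and 3827 (MEF). Peak length as an offset gave 0 lower (genotype), 1 lower (ES) and 476 lower (MEF), and limma on the fold enrichment 0 lower, 0 higher and 199 higher. The clone series as a block and run A alone each gave 0 lower between genotypes. All these counts were of intron regions or stretches, without the share over all classes. Single regions that reversed were Gm20388 (-0.012 with the length offset and -0.16 on the fold enrichment), Kctd8 (0.21) and Gtsf1 (-0.51), the last pair on the fold enrichment. The cause was not tested.

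Leaving out 1 sample at a time moved the genotype counts of stretches from 90 to 532 and from 14 to 76, the ES counts from 345 to 5214 and from 20 to 168, and the MEF counts from 5543 to 9664 and from 427 to 645. Counts of regions by tags ran from 0 to 7 higher and 0 to 1 lower (genotype), 0 to 257 and 0 to 317 (ES), and 881 to 1308 and 596 to 1292 (MEF). The differences in number of peaks ran from -5567 to -1229 (genotype), -14669 to -3683 (ES), -17891 to -13553 (MEF). Those in share of peaks ran from -1.79 to -0.265 (genotype), -1.91 to -0.271 (ES), -5.25 to -3.91 (MEF). Those in share of tags ran from -1.95 to -0.0964 (genotype), -8.23 to -3.31 (ES), -9.93 to -8.09 (MEF). Those in fold enrichment ran from 0.525 to 1.18 (genotype), -2.25 to -0.675 (ES), -3.67 to -2.46 (MEF). Those in width ran from -38.4 to -1.42 (genotype), -12.8 to 25.2 (ES), 63.2 to 148 (MEF). With a sample less, the ES and MEF comparisons cannot reach an exact permutation p of 0.05. The ES width reversed to -9.00 bp without Aid+/+ iPS 1 and -12.8 bp without ES 3. No paired analysis was possible because the replicate numbers of the iPS and ES samples only name samples, and those of the MEFs pair with none, while the clone series, which links 2 clones of each genotype, was used as the block above. The share of repeat-masked bases was not run, as the genome used carries no masking. Peaks of 24 to 46 tags in the median limit what presence and absence can show, and a region without a peak may still hold tags.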
